A study of Mus musculus with 24 samples.

Results

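Translation factors are the proteins that load ribosomes onto mRNA, deliver tRNA to them and move them along. The genes described here are the mouse initiation and elongation factor genes of the array's annotation whose symbols start with Eif1 to Eif6, Eef1 or Eef2, without Eif1a, Eif4e1b and the Eif2ak kinases. This rule by name took in 57 of 19532 genes, and 1 of the 57, Eif2s3x-ps1, is annotated as a pseudogene. Their mRNA was measured in single cells on 24 arrays: 21 one-cell embryos from intracytoplasmic injection of sperm (ICSI) and 3 oocytes in metaphase II (MII), which stand for 0 h. The times 2, 6 and 8 h after injection had 3 embryos each and the times 4, 10 and 12 h had 4 each. All cells carried the B6D2F1 hybrid background, with no transgene or drug named in the labels, and the injected sperm came from B6D2F1 males aged 8 to 12 weeks. Oocytes were kept in kalium simplex optimized medium. No label ties a cell to a female or a culture, so the p-values below measure the spread between these cells.

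Initiation starts when eIF2 brings the initiator tRNA to the small ribosomal subunit, which eIF1, eIF1A, eIF3 and eIF5 prepare for scanning. The cap-binding complex eIF4F, made of eIF4E, an eIF4G and the helicase eIF4A, brings in the mRNA, and the eIF4E-binding proteins block it. eEF1A and eEF2 then carry out elongation. An MII oocyte is transcriptionally silent, and protein synthesis in the oocyte and in the early embryo runs largely on stored maternal mRNA, part of which is held back or released through the length of its poly(A) tail. The mRNA was captured here on oligo-dT beads, so that less of an mRNA and a shorter tail cannot be told apart.

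Levels are on a log2 intensity scale rebuilt from the deposited scores, and a group is given by its mean ± SD. The background of the arrays lay at 6.85, and a value above 7.85, 1 log2 unit over it, is called above background. The level of one gene's probe is not set against that of another. A change is the difference of group means on this scale, embryos minus oocytes, and it passed the test at a Benjamini-Hochberg adjusted p under 0.05 over all 19532 genes in a limma fit of all 24 arrays. All cells were brought to 1 distribution of values before deposit, so a change in the total mRNA of a cell is not visible.

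The oocyte arrays agreed more closely with each other and held more distinct values than the embryo arrays. Whether array quality or differences between the cells lie behind this was not tested. Pairs of oocytes correlated at 0.93 to 0.94 over all probes, and pairs of embryos of 1 time at 0.82 to 0.91. The embryo arrays held 5309 to 7531 distinct values each and the oocyte arrays 7580 to 7856. The median SD of the 57 genes was 0.52, 0.71, 0.46, 0.71, 0.66 and 0.61 from 2 h to 12 h, and 0.32 in oocytes. Over all genes it was 0.53, 0.50, 0.47, 0.46, 0.49 and 0.50, and 0.28 in oocytes, so the 57 genes had the wider spread at 4, 8, 10 and 12 h. All 12 oocyte marker genes were above background on average in embryos and in oocytes, with list means of 12.31 to 14.02 in single embryos and 13.53 to 13.73 in single oocytes and medians of 13.37 and 14.08. Of 9 measured cumulus and granulosa cell markers, 2 were above background in embryos and 1 in oocytes, with list means of 7.83 to 8.37 in single embryos and 7.79 to 7.80 in single oocytes. Of 8 sperm markers, 5 were above background in embryos and 4 in oocytes, with list means of 8.99 to 9.84 and 8.70 to 8.79. The part of array quality and of other cells' RNA in the values below was not tested.

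Most of the 57 translation factor mRNAs were above background in the oocyte. Of the 57 genes, 43 were above background in all 3 oocytes and 33 in all 24 cells. The share of all genes above background was not set beside these counts, so they describe the 57 genes only. These 33 included genes of each role, among them Eif5 and Eif5b of start codon recognition and subunit joining, Eif2s2 and Eif2s3x of eIF2, Eif3a, Eif3c, Eif3e, Eif3i, Eif3j1 and Eif3k of eIF3, the eIF4A, eIF4E and eIF4G genes measured, and Eef1a1, Eef1b2, Eef1g and Eef2 of elongation. A further 12 genes were above background in fewer than 12 cells, namely Eef1akmt1, Eef1akmt2, Eef2kmt, Eif2b2, Eif2b3, Eif2b5, Eif2s3y, Eif3l, Eif3m, Eif4ebp1, Eif4ebp3 and Eif4h. Where every cell of a group was at background, only a bound on the change can be read. Eif4g1, the main scaffold of eIF4F, and Eif2s1, the eIF2 subunit whose phosphorylation stops initiation, have no probe of their own in the annotation and were not analysed here.

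**Figure D1:**
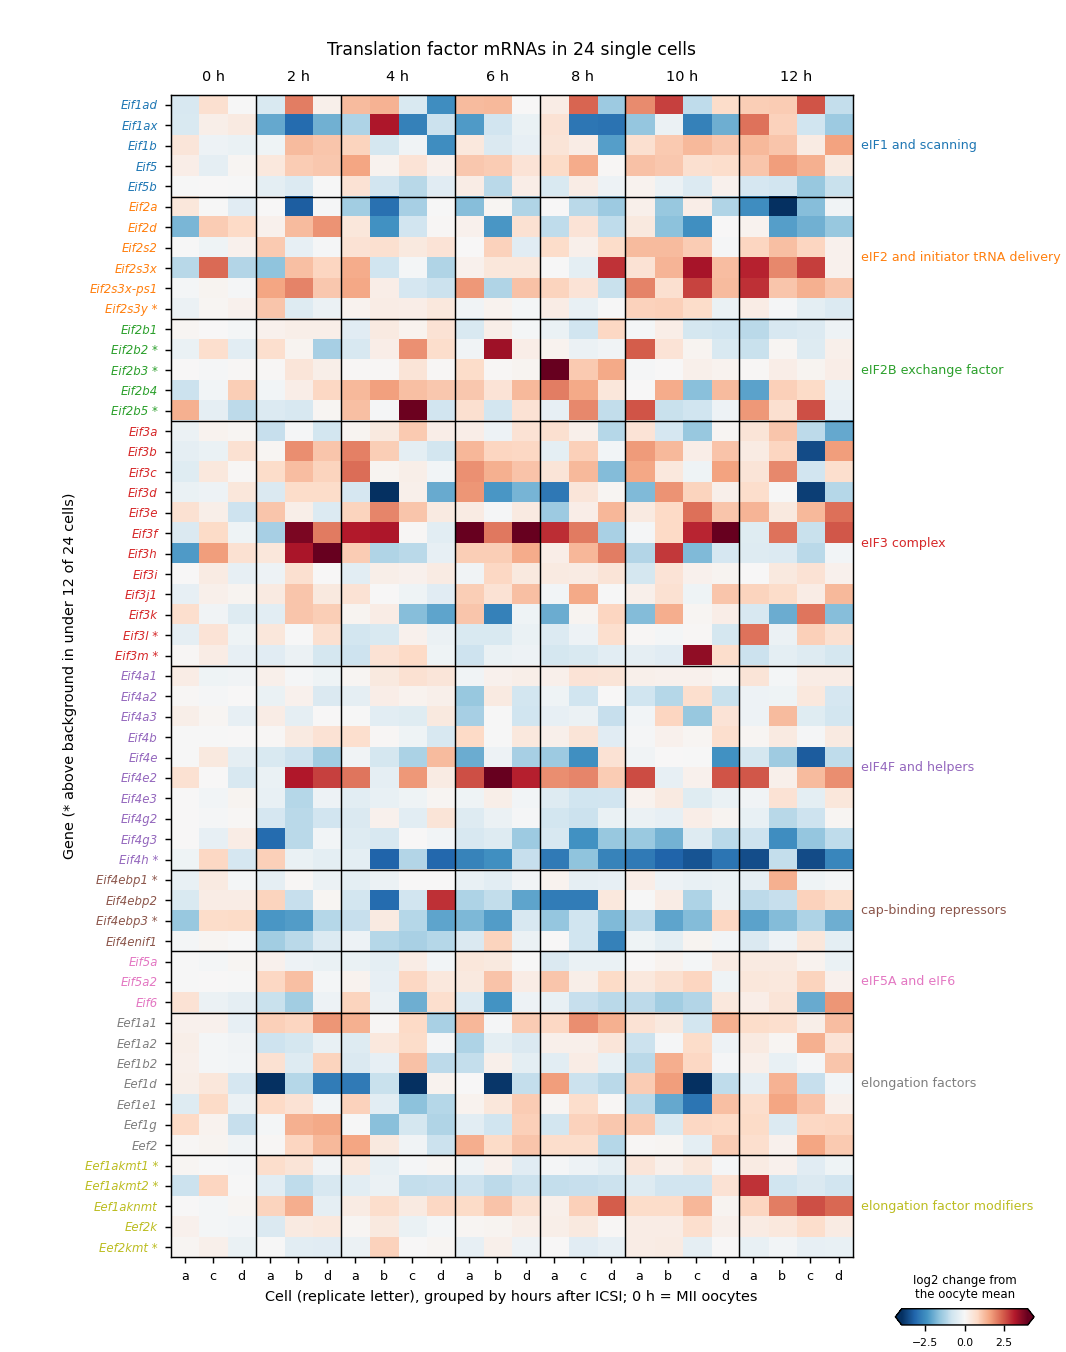
Each row is 1 of the 57 genes, grouped by role, and each column is 1 of the 24 cells, grouped by hours after ICSI with the MII oocytes at 0 h. Colour gives the log2 change of the cell from the mean of the 3 oocytes and is capped at 4 in either direction. An asterisk marks a gene above background in fewer than 12 cells. Rows such as Eif4a1, Eif4b and Eif5a are pale throughout, the Eif4h row is blue in most cells from 4 h on, and Eif3f and Eef1d vary between cells of 1 time.

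Part of these mRNAs are known in mammalian cells as TOP mRNAs. Such an mRNA starts with a C followed by a run of pyrimidines, the 5′ terminal oligopyrimidine tract, through which mTOR signalling controls its translation. The sequences around the annotated start sites are shown for 5 genes of the TOP list used here and for Eif4h. Those of Eif2s3x and Eif2s3y, which are not on that list, are shown too. They come from RefSeq, build GRCm38.p6, and each covers 5 bases before the start and 25 bases from it on, read 5′ to 3′ on the transcribed strand. Capitals mark the longest C followed by at least 5 bases that are each C or T.
Eef1a1, chr9:78481700-78481729, minus strand: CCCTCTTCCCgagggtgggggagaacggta
Eef2, chr10:81176626-81176655, plus strand: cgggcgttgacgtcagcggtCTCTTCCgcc
Eif3f, chr7:108934410-108934439, plus strand: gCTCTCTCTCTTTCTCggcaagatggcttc
Eif4b, chr15:102073768-102073797, plus strand: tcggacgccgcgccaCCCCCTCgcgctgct
Eef1b2, chr1:63176826-63176855, plus strand: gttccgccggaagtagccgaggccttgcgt
Eif2s3x, chrX:94212627-94212656, minus strand: ttttCCTTTTCTCTCCgagcaagatggctg
Eif2s3y, chrY:1010590-1010619, plus strand: cagccaCTTCCTTCTTTCgtgagcaagatg
Eif4h, chr5:134639385-134639414, minus strand: cgatcaggcagcgcggcggacagccccggt

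In this window a run of this kind stood in 6178 of the 27025 genes of the RefSeq promoter table, which is 22.9%. It stood in 14 of the 44 translation factor genes that the table matched, or 31.8%, and in 4 of the 5 matched TOP genes. With the annotated start as position 1 and the base before it as -1, the runs shown begin at -5 in Eef1a1, -4 in Eif3f, -1 in Eif2s3x, 2 in Eif2s3y, 11 in Eif4b and 16 in Eef2. Those of Eif4b and Eef2 thus lie inside the annotated transcript and are not at its start. The run of Eif3f covers 15 bases and that of Eef1a1 at least 10 bases, while Eef1b2 and Eif4h show none in the window. The Eef1a1 run begins on the first base of the window, so it may start further upstream than -5. Eif2s3x on the X chromosome and Eif2s3y on the Y chromosome, which both encode the gamma subunit of eIF2, have runs of 12 bases each. A match only describes these letters and shows neither the start used in the oocyte nor control by mTOR.

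Across the time course, 2 of the 57 genes passed a test, each at 1 time. By limma, 0 of 57 passed at 2 h, where 0.102% of all genes did, 0 at 4 h against 0.0666%, and 0 at 6 h against 0.148%. At 8 h 1 gene passed, against 0.845% of all genes, and at 10 h 1 gene, against 0.707%. At 12 h, the time with the most calls over all genes, 0 of 57 passed, against 1.46% of all genes. None passed in all embryos together against oocytes, where 0.932% of all genes did, in 10 and 12 h embryos against 2 and 4 h embryos, where 0.763% did, or in the F-test over the 7 times, where 1.2% did. At an unadjusted p under 0.05 the counts were 5, 2, 4, 8, 5 and 11 of 57 from 2 h to 12 h, 6 for all embryos, 9 for late against early embryos and 4 for the F-test. As shares of the 57 genes these were 8.77, 3.51, 7.02, 14, 8.77 and 19.3% from 2 h to 12 h, then 10.5, 15.8 and 7.02%. The shares of all genes were 9.5, 9.25, 8.77, 13.4, 11.3 and 13.5%, then 10.6, 12.4 and 15.1%. The number of all genes called also moved with single arrays: leaving out 1 in turn gave 1 to 41 genes at 6 h (29 with all arrays), 14 to 189 at 8 h (165), 22 to 145 at 10 h (138), 103 to 312 at 12 h (285), 51 to 196 for all embryos (182) and 94 to 284 in the F-test (234).

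The median change of the group lay close to that of the whole array. The median log2 change of the 57 genes was 0.16, -0.02, -0.01, -0.07, 0.10 and 0.18 from 2 h to 12 h, and the median over all genes ran from 0.02 to 0.08. At 12 h 8 of the 57 genes lay more than 1 log2 unit above oocytes, or 14%, and 7 more than 1 below, or 12.3%. Over all genes these shares were 9.38% and 10.6%. The power to see single changes was limited: in simulated data for 12 h against 0 h with 19532 genes, the fit found 13.4% of the genes moved by 1 log2 unit, 55.2% of those moved by 2 and 90.9% of those moved by 4. A missed threshold below therefore does not show that a gene stayed the same, and the 95% interval of each change says how much could have been missed. Where cells of 2 groups are said not to overlap, this only describes the few cells printed. The share of all genes that separate in this way was not set beside it. With so few cells, groups can separate without a change, so a gap does not replace a passed test.

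**Figure D2:**
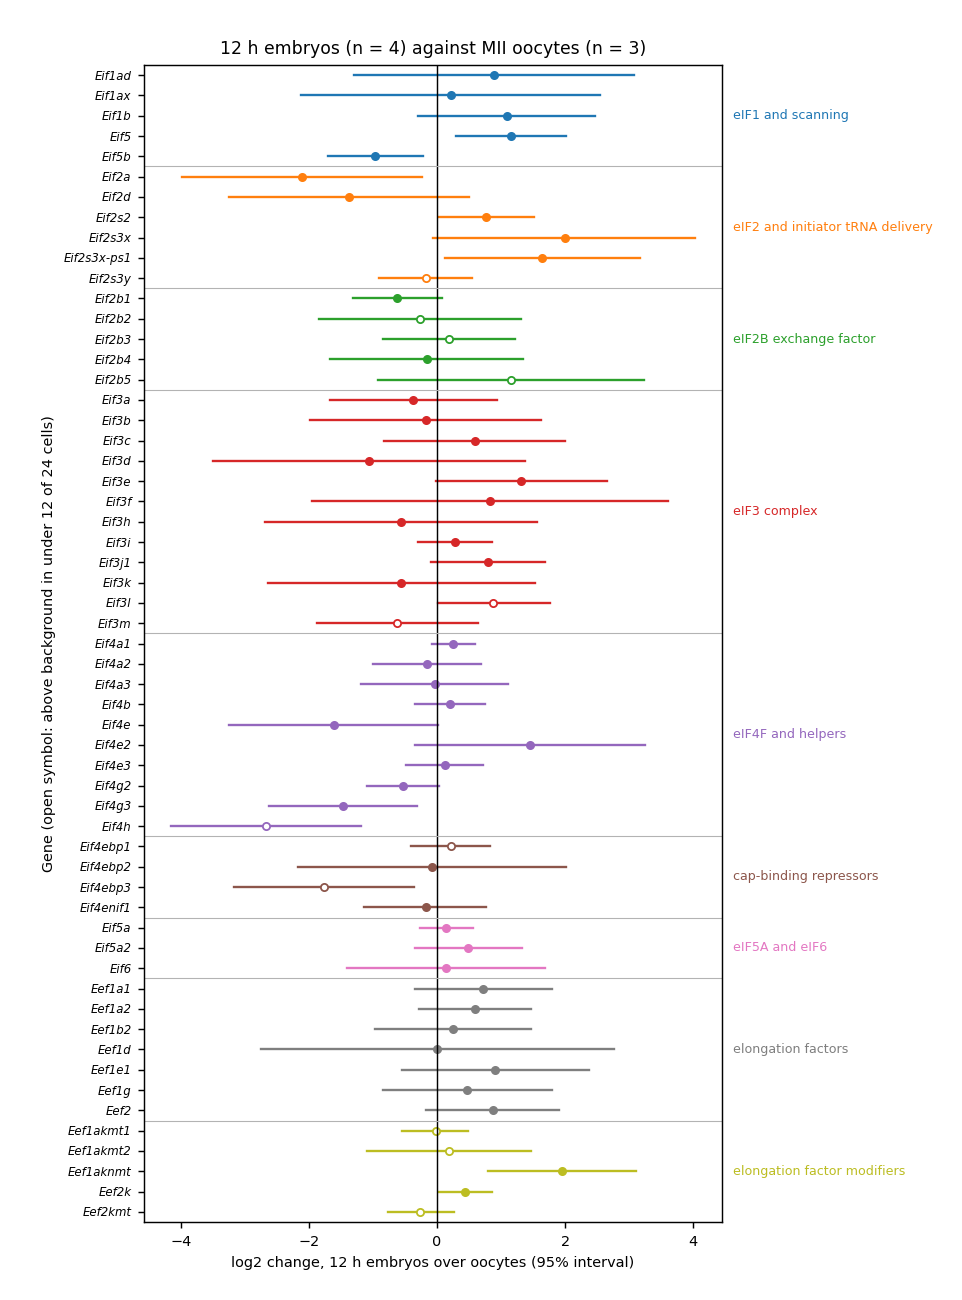
Each point is the log2 change of 1 of the 57 genes between 12 h embryos (n = 4) and MII oocytes (n = 3), with its 95% interval from the limma fit as a bar, grouped and coloured by role. Open points mark genes above background in fewer than 12 of 24 cells. The narrow intervals of Eif4a1, Eif5a and Eef2k lie close to 0, Eif4h, with 3 of 4 embryos at background, lies at -2.67 and Eif2s3x highest at 1.99, and none of the 57 passed the adjusted threshold at this time.

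The 5 genes of the first group act on the small subunit and on subunit joining. Eif5 makes eIF2 hydrolyse its GTP when the start codon is found. It measured 12.38, 12.96, 12.71 and 11.67 in 12 h embryos, against 11.55, 10.93 and 11.37 in oocytes, so that the groups did not overlap. The log2 change was 1.15 ± 0.41 (SE), with a 95% interval of 0.29 to 2.01, and it did not pass the test (limma, adjusted p = 0.195). Its means were 11.28 at 0 h, then 12.12, 11.89, 12.15, 12.05, 12.18 and 12.43 from 2 h to 12 h, above the oocyte mean at each time. The other bright probe of Eif5 went the other way at 12 h, with a change of -0.32, so the size belongs to 1 probe.

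Eif5b, the GTPase that joins the large subunit, measured 13.57, 13.49, 12.75 and 13.37 in 12 h embryos, against 14.24, 14.28 and 14.25 in oocytes. All 4 embryos lay below all 3 oocytes, with a change of -0.97 ± 0.36 (SE; limma adjusted p = 0.206). Its other bright probes gave -1.18, -1.17 and -0.23 at 12 h. At 10 h the mean of the probe used was 14.14 and in oocytes 14.26. Eif1b, a close relative of the start-codon factor eIF1, averaged 12.61 ± 0.54 in 12 h embryos and 11.53 ± 0.42 in oocytes, Eif1ad 9.87 ± 1.42 and 8.98 ± 0.64, and Eif1ax, which encodes eIF1A, 10.32 ± 1.65 and 10.11 ± 0.54. From 2 h to 10 h the means of Eif1ax were 7.75, 9.72, 9.0, 8.35 and 8.49, and its 4 h embryos ran from 7.39 to 13.34. Its second bright probe gave a change of -1.61 at 12 h, against 0.21 on the probe used. None of the 5 passed in any comparison.

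Among the 6 genes for eIF2 and initiator tRNA delivery, Eif2s2 and Eif2s3x were higher at 10 and 12 h than in oocytes. Eif2a was lower than in oocytes at each time, and all of these changes were short of the threshold. Eif2s2, the beta subunit, measured 14.10, 14.45, 14.10 and 13.41 in 12 h embryos, against 13.23, 13.08 and 13.41 in oocytes. Its change was 0.77 at 12 h (limma adjusted p = 0.344) and 0.86 at 10 h (limma adjusted p = 0.347), and its second bright probe gave 1.91 and 0.59 at these times. Eif2s3x, the gamma subunit on the X chromosome, measured 13.36, 12.20, 13.03 and 10.44 in 12 h embryos, against 9.15, 12.55 and 9.11 in oocytes. The groups overlapped because 1 oocyte was as bright as the embryos, and the change of 1.99 had an interval of -0.06 to 4.03 (limma adjusted p = 0.385).

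The oocytes agreed more closely on the other bright probes of Eif2s3x, with SDs of 0.20 on each, and these gave changes of 1.23 and 0.67 at 12 h and 1.44 and 0.89 at 10 h. Eif2s3x-ps1 carries the name of a pseudogene of this gene, so its probe may share sequence with the parent. It measured 11.36, 9.56, 9.87 and 9.55 in 12 h embryos, against 8.38, 8.54 and 8.41 in oocytes, with a change of 1.64 ± 0.73 (SE; limma adjusted p = 0.316). Eif2s3y, the copy on the Y chromosome, was above background in 4 of 21 embryos and 0 of 3 oocytes and reached at most 8.47. Eif2a, an initiator tRNA-binding protein that is not part of eIF2, measured 8.31, 6.66, 9.07 and 10.65 in 12 h embryos, against 11.24, 10.78 and 10.32 in oocytes. The embryo at 10.65 lay within the oocyte range, and the change of -2.11 did not pass (limma adjusted p = 0.294). From 2 h to 10 h the changes of Eif2a were -1.12, -1.44, -0.94, -0.84 and -0.55. Between late and early embryos its change was -0.05. Eif2d, which can also place initiator tRNA, averaged 10.07 ± 1.06 in 12 h embryos and 11.44 ± 1.58 in oocytes. Its other bright probes gave changes of 1.27 and 0.24 at 12 h, against -1.37 on the probe used, so the probes of Eif2d disagree.

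eIF2B reloads eIF2 with GTP and is the target of the integrated stress response. Of its 5 subunits only Eif2b3, the gamma subunit, passed a test, and only at 8 h; at this time 0.394% of all genes were called higher. It measured 11.40, 7.79 and 8.26 in 8 h embryos, against 6.76, 6.70 and 6.79 in oocytes. At every other time all cells were at background, with means of 6.82 to 7.05 in embryos. The test passed with a limma adjusted p of 0.0338. Because no oocyte was above background, only a bound can be given, which compares group means and leaves out the spread between cells. The bound was at least 2.46-fold higher at 8 h, with 2 of 3 embryos above background.

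That value rests largely on 1 embryo at 11.40. Without it the bound was at least 1.13-fold higher, with 1 of 2 embryos above background (limma adjusted p = 0.0127). The call at 8 h was lost without oocyte a, c or d and with only the groups compared (limma adjusted p = 0.278). The gene has 1 probe, so no other probe could be set against it. Eif2b1, the alpha subunit, was bright and measured 13.13, 13.56, 13.64 and 13.99 in 12 h embryos, against 14.26, 14.21 and 14.12 in oocytes. All 4 embryos lay below the oocytes, with a change of -0.62 (limma adjusted p = 0.437). Eif2b5, the catalytic epsilon subunit, measured 9.19, 8.10, 10.05 and 7.12 in 12 h embryos, against 8.87, 7.11 and 6.40 in oocytes, with cells of both groups at background. Eif2b4 averaged 10.67 ± 1.42 in 12 h embryos and 10.83 ± 0.92 in oocytes, a change of -0.16, while its second bright probe gave 1.37.

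**Figure D3:**
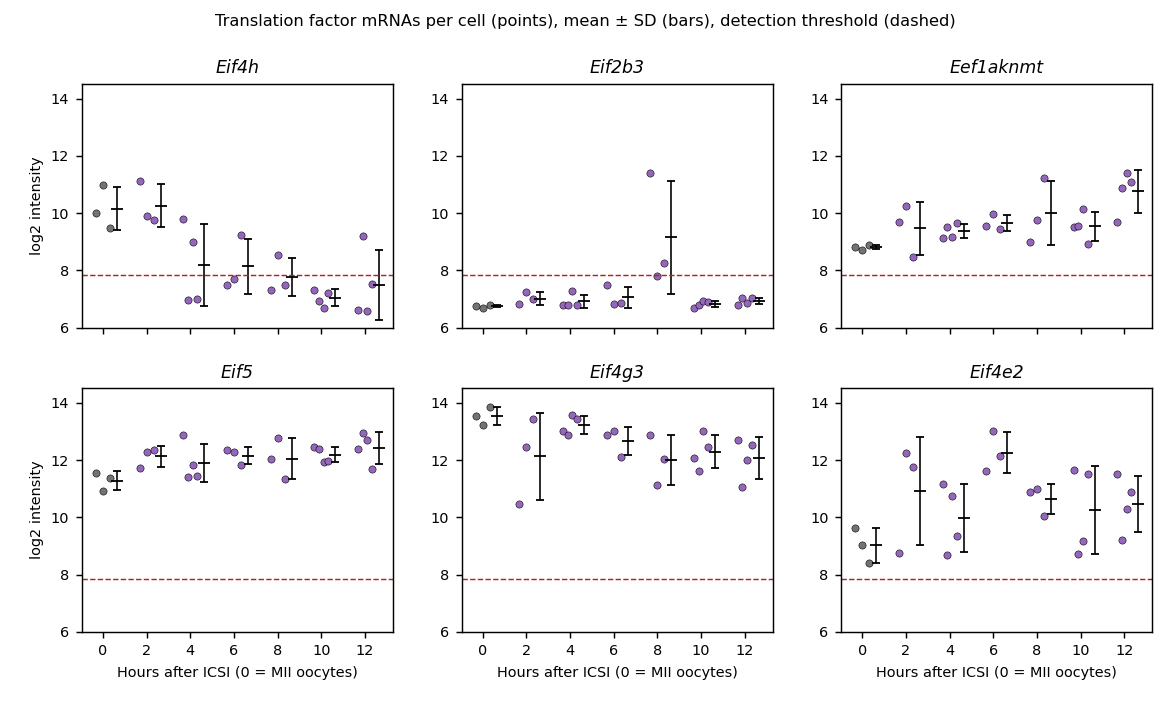
log2 intensity of 6 genes in every cell, against hours after ICSI with the MII oocytes at 0 h. Points are cells, bars give mean ± SD of the 3 or 4 cells of a group, and the dashed line marks 7.85, the threshold above background. Eif4h is below the line in all 4 embryos at 10 h and at 9.49 to 10.99 in oocytes, Eif2b3 leaves background at 8 h, Eef1aknmt lies at 9.68 to 11.40 at 12 h, and Eif4e2 reaches 13.02 at 6 h.

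eIF3 is the largest initiation factor and holds the small subunit, the mRNA and eIF4G together. Of its 12 measured subunit genes, 0 passed in any comparison by limma, and 1 had an unadjusted p under 0.05 at 12 h. The median change was 0.46 at 2 h, 0.36 at 10 h and 0.05 at 12 h. Eif3a, the scaffold subunit, measured 12.13, 12.73, 10.59 and 9.57 in 12 h embryos, against 11.40, 11.77 and 11.71 in oocytes, and the embryos lay on both sides of the oocytes. Eif3i averaged 14.42 ± 0.24 in 12 h embryos and 14.13 ± 0.32 in oocytes. The interval of Eif3i at 12 h, -0.29 to 0.86, stays within 1 log2 unit of 0 but allows a rise. That of Eif3a, -1.67 to 0.93, is wider.

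Eif3e measured 11.31, 10.34, 11.24 and 12.16 in 12 h embryos, against 10.56, 10.17 and 9.12 in oocytes, and its change of 1.31 was the largest of the complex at this time (limma adjusted p = 0.377). Eif3d had the lowest change, -1.06, and measured 12.38, 11.68, 7.91 and 10.54 in 12 h embryos, against 11.42, 11.50 and 12.15 in oocytes, with overlap. Eif3f, a TOP mRNA, varied most between cells. It measured 13.07, 10.33 and 13.12 in 6 h embryos, against 7.63, 8.98 and 8.03 in oocytes, a change of 3.96 ± 1.43 (SE; limma adjusted p = 0.401). At 4 h 2 embryos at 11.40 and 11.46 stood beside others at 8.27 and 7.78, and at 12 h its values of 7.73, 10.39, 7.33 and 10.71 overlapped the oocytes. Eif3h, the subunit that pairs with Eif3f, was high at 2 h with 8.98, 11.81 and 12.89, against 6.26, 10.20 and 9.13 in oocytes, and the spread of the oocytes was as wide as that of the embryos.

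The 10 genes of eIF4F and its helpers included the gene that was lower at 10 h, Eif4h. It encodes eIF4H, which stimulates the helicase eIF4A. Eif4h measured 9.99, 10.99 and 9.49 in the 3 oocytes and 11.11, 9.90 and 9.76 in the 2 h embryos, so that these groups overlapped. The 4 h embryos were split, with 9.78 and 9.0 beside 6.95 and 7.01. At 6 h the values were 7.48, 7.71 and 9.24, and at 8 h they were 7.32, 8.54 and 7.48, all below the lowest oocyte.

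At 10 h all 4 embryos were at background with 7.33, 6.94, 6.69 and 7.22, and at 12 h Eif4h measured 6.60, 9.21, 6.59 and 7.54. Embryos above background numbered 2 of 4 at 4 h, 1 of 3 at 6 h, 1 of 3 at 8 h, 0 of 4 at 10 h and 1 of 4 at 12 h. Only 10 h passed the test (limma adjusted p = 0.0469), where 0.573% of all genes were called lower. Since the 10 h embryos were at background, the data give a bound on the group means: at least 4.94-fold lower at 10 h. This bound leaves out the spread between cells, and the fitted change was -3.11 ± 0.72 (SE). At 12 h the adjusted p was 0.0637 (limma), in late against early embryos 0.0625, and in the F-test 0.0603.

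With each of the 24 arrays left out in turn, Eif4h at 10 h was called 10 times and lost 14 times, with adjusted p of 0.0258 to 0.237 (limma). Each of the 3 oocytes was among the arrays whose loss ended the call. It was also lost on the deposited scores (adjusted p = 0.0555), with the mean of both probes (0.0578) and with the replicate letter as a block (0.0813). Leaving out the 6 arrays with under 6000 distinct values, an alternative chosen after seeing the data, ended the call as well (0.174). The 10 h call was kept with no trend in the fit (limma adjusted p = 0.0411) and with array weights (0.00456). It also held in the upper 60% of genes (0.0305) and with only the groups compared (0.0304). The 12 h change, which did not pass in the main fit, was called with array weights (limma adjusted p = 0.0174) and in the upper 60% of genes (0.0429). It was called 2 times and not called 22 times when each array was left out. Its adjusted p ran from 0.0229 to 0.286 (limma), and the lowest came without the 12 h embryo at 9.21, the brightest of that time. The only other probe of Eif4h was at background in all 24 cells and can show no change. The values therefore come from 1 probe. Eif4b, which helps eIF4A in the same way as eIF4H and is a TOP mRNA, measured 14.82, 15.11, 14.70 and 15.10 in 12 h embryos, against 14.72, 14.73 and 14.76 in oocytes. The groups overlapped, and the interval of the change was -0.35 to 0.75. Its other bright probes gave -0.34 and -1.19 at 12 h, so the probes of Eif4b disagree.

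The helicase genes themselves had small changes. Eif4a1 measured 15.28, 14.69, 15.07 and 15.08 in 12 h embryos, against 15.08, 14.60 and 14.65 in oocytes, with a change of 0.25 and an interval of -0.08 to 0.59. Its other bright probes gave 0.41 and 0.49. Eif4a2 measured 13.42, 13.47, 14.04 and 12.97 in 12 h embryos, against 13.69, 13.57 and 13.63 in oocytes. Eif4a3, the helicase of the exon junction complex, averaged 11.09 ± 0.89 in 12 h embryos and 11.13 ± 0.29 in oocytes.

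The cap-binding proteins had values in both directions. Eif4e, which binds the cap within eIF4F, measured 10.91, 10.17, 8.27 and 10.59 in 12 h embryos, against 11.58, 11.98 and 11.24 in oocytes. All 4 embryos lay below the oocytes, with a change of -1.61 and an interval of -3.24 to 0.01 (limma adjusted p = 0.374), but the second bright probe of Eif4e had a change of 0.37. Eif4e2, a cap-binding protein that does not bind eIF4G and acts as a repressor, measured 11.60, 13.02 and 12.14 in 6 h embryos, against 9.64, 9.02 and 8.39 in oocytes. The groups did not overlap, and the change was 3.23 ± 0.92 (SE; limma adjusted p = 0.223), with 1.81 on its second bright probe.

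From 2 h to 12 h the means of Eif4e2 were 10.91, 9.98, 12.25, 10.64, 10.26 and 10.47, all above the oocyte mean of 9.02, and the second probe went below its oocyte mean at 10 h, with a change of -0.33. At 12 h its values of 11.50, 9.21, 10.29 and 10.87 overlapped the oocytes. Eif4e3 averaged 13.39 ± 0.47 in 12 h embryos and 13.27 ± 0.12 in oocytes. The scaffold Eif4g3, a relative of Eif4g1, measured 12.69, 11.05, 11.99 and 12.52 in 12 h embryos, against 13.55, 13.21 and 13.84 in oocytes, with no overlap. Its change was -1.47 ± 0.56 (SE; limma adjusted p = 0.219), and its second bright probe gave -0.69. Eif4g2, which lacks the eIF4E-binding part, averaged 13.94 ± 0.53 in 12 h embryos and 14.47 ± 0.05 in oocytes.

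Of the 4 genes that encode repressors of eIF4E, 2 were near background. Eif4ebp1, the best known target of mTOR in this family, was above background in 1 of 24 cells. It measured 6.60, 8.41, 6.81 and 6.91 in 12 h embryos, against 6.69, 7.32 and 6.91 in oocytes. Eif4ebp3 measured 6.93, 7.34, 7.85 and 7.13 in 12 h embryos, against 7.56, 9.82 and 9.86 in oocytes, and did not pass the test (limma adjusted p = 0.228). 1 embryo at 10 h reached 9.91, so the low values were not shared by all late embryos. Eif4ebp2 measured 9.26, 9.39, 11.24 and 11.04 in 12 h embryos, against 9.71, 10.61 and 10.61 in oocytes, with overlap. Eif4enif1, a transporter of eIF4E that also holds maternal mRNA in repressed particles, averaged 13.80 ± 0.45 in 12 h embryos and 13.98 ± 0.09 in oocytes.

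Eif5a, whose hypusine-bearing product helps ribosomes over difficult peptide bonds, measured 14.37, 14.38, 14.15 and 13.77 in 12 h embryos, against 14.01, 13.95 and 14.11 in oocytes. The change was 0.14 with an interval of -0.27 to 0.56. Its relative Eif5a2 was dim, above background in 17 of 21 embryos and 0 of 3 oocytes, but its oocytes at 7.68, 7.71 and 7.69 sat just under the threshold and the 12 h embryos, at 8.15, 8.10, 8.59 and 7.86, just over it. Eif6, which keeps the large subunit from joining too early, measured 13.46, 13.71, 11.16 and 14.95 in 12 h embryos, against 13.76, 12.96 and 12.82 in oocytes, and the embryos spread to both sides of the oocytes.

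Of the 7 elongation factor genes 6 had a positive change at 12 h and Eef1d one of 0.00, where 57.2% of all genes were positive. Their median was 0.59 and that of all genes 0.08, and none of the 7 passed the test. From 2 h to 10 h the medians of the 7 genes were 0.42, -0.19, -0.10, 0.28 and 0.19. Eef1a1, which carries aminoacyl-tRNA to the ribosome, measured 13.79, 13.74, 13.29 and 14.30 in 12 h embryos, against 13.22, 13.21 and 12.73 in oocytes. All 4 embryos lay above the oocytes, with a change of 0.72 ± 0.52 (SE; limma adjusted p = 0.595), and its second bright probe gave 1.65. Across the course its means were 13.06, 14.25, 13.30, 13.82, 14.41, 13.46 and 13.78 from 0 h to 12 h, with no steady course, and 1 embryo at 4 h was as low as 11.77. Eef2, the translocase, measured 14.17, 13.65, 15.06 and 14.53 in 12 h embryos, against 13.52, 13.59 and 13.34 in oocytes. These groups did not overlap either, with a change of 0.87 ± 0.50 (SE; limma adjusted p = 0.471) and 0.79 and 0.46 on the other bright probes.

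Eef1b2, Eef1g and Eef1d encode subunits of the exchange factor that recharges eEF1A, and none of them passed in any comparison. Eef1b2 averaged 11.56 ± 0.61 in 12 h embryos and 11.30 ± 0.17 in oocytes, and Eef1g 11.16 ± 0.68 and 10.69 ± 0.86. Eef1d differed widely between cells: it measured 6.96, 10.46 and 8.81 in 2 h embryos and 8.76, 10.70, 7.03 and 11.75 in 4 h embryos, against 11.83, 12.05 and 10.91 in oocytes. The 2 h embryos were all below the oocytes, and 1 embryo of 10 h, at 6.81, was at background beside others at 12.61 and 13.26. At 12 h Eef1d measured 11.24, 12.98, 10.68 and 11.50, with a mean of 11.60 in embryos and in oocytes. The second bright probe of Eef1d had changes of -0.30, -0.06, 1.11, 2.07, 1.42 and 0.84 from 2 h to 12 h, against -2.85, -2.04, -1.61, -0.09, -0.78 and 0.00 on the probe used, so the low early values come from 1 probe. The oocyte mean of the second probe was 8.08, close to the threshold, which leaves it little room to show a lower level. Eef1e1, which sits in the multi-synthetase complex, had the highest change of the elongation genes at 12 h, 0.91 (limma adjusted p = 0.632). It measured 12.82, 13.69, 13.25 and 12.31 in 12 h embryos, against 11.58, 12.87 and 11.87 in oocytes, with overlap. Eef1a2, the form of adult muscle and neurons, stayed dim, with 8.75 ± 0.58 in 12 h embryos and 8.15 ± 0.21 in oocytes.

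Among the 5 genes whose products modify elongation factors, Eef1aknmt had the second smallest p of the 57 genes at 12 h. Its product methylates eEF1A, as known from human cells. It measured 9.68, 10.86, 11.40 and 11.10 in 12 h embryos, against 8.83, 8.72 and 8.87 in oocytes. All 4 embryos lay above all oocytes, with a change of 1.95 ± 0.56 (SE) that missed the threshold (limma adjusted p = 0.0839). At 8 h it measured 9.0, 9.77 and 11.22, and at 10 h 9.53, 9.54, 10.15 and 8.93, so every embryo of these times was above the oocytes too.

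When each of the 24 arrays was left out in turn, Eef1aknmt at 12 h was called 1 time and not called 23 times. The adjusted p ran from 0.0469 to 0.253 (limma). The 1 call, with a change of 2.31, came without the dimmest 12 h embryo, the one closest to the oocytes. With all arrays kept, the 12 h change was called with array weights (limma adjusted p = 0.0131), the mean of all probes (0.031) and no trend (0.0367). The only other probe of Eef1aknmt was above background in 2 of 24 cells. Eef2k, the kinase that inhibits eEF2, measured 15.38, 15.48, 15.77 and 15.38 in 12 h embryos, against 14.95 to 15.24 in the 3 oocytes. Here the groups did not overlap although the change was only 0.44 ± 0.20 (SE; limma adjusted p = 0.316). Eef2kmt, Eef1akmt1 and Eef1akmt2 were at background in most cells, with Eef2kmt above it in 1 of 24. Eef2kmt measured 6.93, 7.13, 6.89 and 6.93 in 12 h embryos, against 7.29, 7.43 and 6.96 in oocytes, all at background.

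Read by the TOP list rather than by role, 9 TOP mRNAs were measured: Eef1a1, Eef1b2, Eef1d, Eef1g, Eef2, Eif3e, Eif3f, Eif3h and Eif4b. None of the 9 passed in any comparison. At 12 h 8 of 9 had a change above 0, counting Eef1d, whose change rounds to 0.00, and 57.2% of all genes were positive. The median of the 9 was 0.47, and that of all genes 0.08. The 48 genes not on the list had a median of 0.13, with 25 positive. The list was set by gene name, and a gene left off it may still be a TOP mRNA. Eef1a1, Eef1b2, Eef1d, Eef1g and Eef2 are also among the elongation genes counted above. The medians of the TOP genes from 2 h to 12 h were 0.74, -0.02, 0.40, 0.10, 0.30 and 0.47, without a steady course.

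Several genes had probes that disagreed, which bears on every size given above. For 27 of the 57 genes a further probe was bright on average, 39 probes in all. At 12 h 22 of these 39 had a change in the direction of the probe used and 17 in the opposite direction, and at 10 h the numbers were again 22 and 17. Genes whose bright probes had changes of 1 sign at 12 h included Eif4g3, Eif5b, Eif2s3x, Eef1a1, Eef2 and Eif2s2. The bright probes of 14 genes did not, among them Eif5, Eif4e, Eif4b, Eif2d, Eif1ax and Eif2b4. Why probes of 1 gene differ was not tested.

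**Figure D4:**
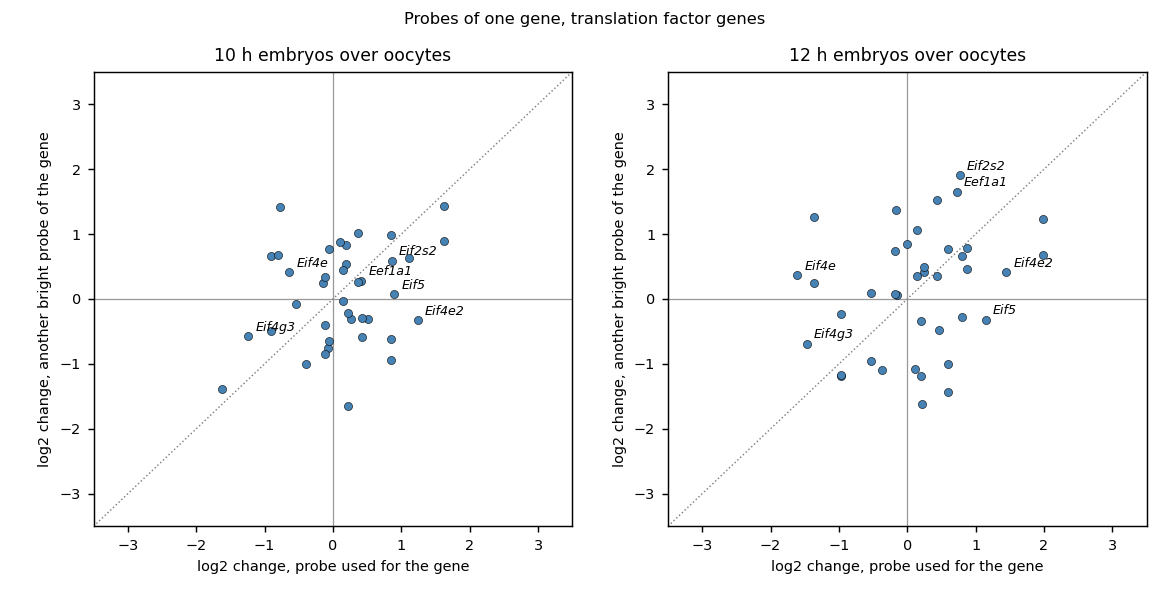
Each of the 39 points is a further bright probe of a translation factor gene. The horizontal axis gives the log2 change of the probe used for the gene and the vertical axis that of the further probe, in 10 h embryos (left) and 12 h embryos (right) over oocytes. The dotted line marks equal change. Of the 39 points, 22 lie in the quadrants of equal sign in each panel, and Eif4e and Eif5 lie in opposite quadrants at 12 h.

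Some regulators of these factors had changes that passed the test. The list they come from was chosen with earlier results of these data known, so the counts below describe its genes only. Of 38 measured genes of translation outside the rule, 0 passed from 2 h to 8 h by limma, with 6, 3, 0 and 6 at an unadjusted p under 0.05, where 9.5, 9.25, 8.77 and 13.4% of all genes were. At 10 h 1 was lower, where 0.573% of all genes were, at 12 h 2 were lower, where 1.05% of all genes were, and 3 were lower in 10 and 12 h embryos than in 2 and 4 h embryos, where 0.573% of all genes were. None was higher in these comparisons, and none passed for all embryos against oocytes, where 6 had an unadjusted p under 0.05 and 10.6% of all genes did (limma). Mknk1, a kinase that phosphorylates eIF4E, measured 12.97, 7.39, 7.76 and 9.99 in 12 h embryos, against 14.41, 13.84 and 13.92 in oocytes. The change was -4.53 ± 0.93 (SE; limma adjusted p = 0.0135), and its other bright probes gave -3.10 and -5.46. The embryo at 12.97 stood close to the oocytes, and without it the change was -5.68. Without oocyte a, c or d the call was lost, with adjusted p up to 0.0777 (limma), and with only the groups compared it was 0.165. Mknk1 also fell by 2.97 in late against early embryos (limma adjusted p = 0.0254), a call lost without any 1 of 6 arrays, with array weights (adjusted p = 0.0503) and with only the groups compared (adjusted p = 0.127).

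Eif2ak1, the heme-regulated kinase that phosphorylates eIF2, had changes of -2.86 at 10 h (limma adjusted p = 0.0418) and -2.93 at 12 h (limma adjusted p = 0.0219) and so fell at both times. It measured 12.92, 9.70, 12.46 and 10.65 in 12 h embryos, against 14.34, 14.29 and 14.44 in oocytes, and the highest of the 21 embryos, 14.11 at 8 h, was below every oocyte. Its other bright probes gave -3.18 and -1.04 at 12 h. With the mean of all its probes the adjusted p was 0.0789 at 12 h and 0.298 at 10 h, and with only the groups compared it was 0.136 and 0.0794 (limma). The 12 h call was also lost without oocyte a, c or d and without 12 h embryo b or d, and the 10 h call without 9 of the 24 arrays and on the deposited scores (adjusted p = 0.0688). In late against early embryos Eif2ak1 fell by 2.30 (limma adjusted p = 0.0118), and this call held without each array in turn but not with only the groups compared (adjusted p = 0.0563). It also passed the F-test. Leaving out the 6 arrays with under 6000 distinct values, an alternative chosen after seeing the data, ended the late against early calls of Mknk1, Eif2ak1 and Ppp1r15a (limma adjusted p = 0.219, 0.1 and 0.0867) and the 10 h call of Eif2ak1 (0.173). Ppp1r15a, which directs a phosphatase to eIF2 and so opposes such kinases, averaged 11.93 in 10 and 12 h embryos and 13.57 in 2 and 4 h embryos, a change of -1.65 (limma adjusted p = 0.00908) that held without each array in turn. The 12 h embryos stood at 10.65, 12.67, 12.03 and 12.08, all below the oocytes at 13.39, 13.25 and 13.38. Against oocytes the change of Ppp1r15a did not pass at 12 h (limma adjusted p = 0.105) or at 10 h (0.206). Mtor averaged 9.43 ± 0.60 in 12 h embryos and 10.85 ± 0.34 in oocytes (limma adjusted p = 0.156), but 11.25 ± 0.26 in 10 h embryos. At 12 h the poly(A)-binding protein gene Pabpc1 averaged 7.92 ± 1.43 in embryos and 8.69 ± 0.52 in oocytes, and the release factor gene Etf1 12.86 ± 0.66 and 12.47 ± 0.41.

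For 6 genes above background in all 24 cells, the 95% interval of the change at 12 h lay within 1 log2 unit of 0 on both sides: Eif4a1, Eif5a, Eif4b, Eif3i, Eif4e3 and Eef2k. For Eif4a1 the bounds were -0.08 and 0.59, for Eif5a -0.27 and 0.56, and for Eef2k 0.03 and 0.85. These bounds hold for the brightest probe of each gene. A further bright probe gave -1.19 for Eif4b, -1.08 for Eif4e3 and 1.52 for Eef2k at 12 h.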

How the data were processed

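mRNA of single MII oocytes and ICSI embryos was measured on 24 arrays. Per the labels' protocols it was captured on oligo-dT beads, copied, poly-G tailed and amplified by PCR. The deposited values are scores of 0.00 to 4.57, 1 per probe and array, with array medians of 1.16 to 1.18, as quantile normalization leaves them. The submitters' processing notes name limma with no version; the labels name digoxigenin for the sample cDNA and biotin for a reference cDNA, while their label field reads biotin, so which of these the values measure is not settled. Background correction and scanner are not stated there. Tied probes (1612 midpoints) showed the deposited scores to be a natural log of the natural log of intensity, scaled by 0.2247. They were turned back to log2 intensity, 5.69 to 15.86, with a largest error of 0.0054 in simulated data. A shift or a factor of intensity stays unknown.

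Of 41174 probes, 32664 had 1 gene symbol, 45 several and 8465 none; 32524 matched the RefSeq gene table of GRCm38.p6, and 0 symbols changed. The probe with the highest mean stood for a gene, giving 19532 genes; the 57 translation factor genes had 118 probes. For the probe design no build is named. Groups came from the sample titles. With limma 3.58.1 (R 4.3.3; eBayes with trend), a fit of 7 group means gave 8 two-sided comparisons and an F-test, with Benjamini-Hochberg adjustment over all genes; changes, SEs and 95% intervals come from it. It was tested on simulated data with 200 changed genes (8 false calls). Where every cell of a group was at or below 7.85, a bound was taken against the lowest signal above that level on each array. Such a bound compares group means and leaves out the spread between cells. No 2 arrays were copies: the smallest mean absolute difference was 0.51 log2 units. The number of arrays limits the precision. Figures and tables were made in Python 3.11.15.

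The members, roles and gene lists were chosen with earlier results of these data known. Every cell's value at 12 h or at the time of a call was given for members that passed a test, for the 3 smallest p-values at 12 h, for the largest and smallest change of each role and for a list of core factors; most other members are given by means and counts. Of 40 further genes of translation, Pabpc1l and Rps6kb1 had no probe of 1 symbol. Start-site sequences were found for 44 of the 57 genes. Alternatives were the deposited scores, no trend, array weights, the upper 60% of genes, the mean of all probes, a replicate block, only the groups compared, each array left out and, chosen after seeing the data, 6 arrays with fewer than 6000 distinct values left out.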

Additional observations from a re-analysis of the deposited data

Results flagged for a closer look

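In groups of 4 cells, a cell that stood far from the other 3 was looked for in the 28 translation factor genes given in detail. This was found in 3 of 84 groups, and chance alone gives about 1 in 20. Eif4e measured 9.17 in 10 h embryo d, below the 11.47 to 11.61 of the other embryos of that time. Eif4ebp1 measured 8.41 in 12 h embryo b, above the 6.60 to 6.91 of the others, and this was the only cell of 24 in which it was above background. Eif2b3 measured 7.27 in 4 h embryo c, above the 6.79 to 6.80 of the others, and all 4 of these values were not above background.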

How the results depend on the processing

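The number of translation factor genes called moved between 0 and 5. At 6 h it was 1 with array weights. At 8 h the 1 call became 0 in the upper 60% of genes, which leaves out Eif2b3, and with only the groups compared, and 0 to 1 without 1 array. At 10 h the 1 call became 0 with the deposited scores, the mean of all probes, the replicate block and without the 6 coarse arrays, 2 with array weights and 0 to 1 without 1 array. At 12 h it was 1 with no trend, in the upper 60% and with the mean of all probes, 2 with array weights, and 0 to 1 without 1 array. For all embryos it was 5 with array weights and 1 without the 6 arrays; for late against early embryos 1 in the upper 60% and 0 to 1 without 1 array; for the F-test 2 with array weights, 1 in the upper 60% and without the 6 arrays, and 0 to 1 without 1 array. The genes were Eif4h, Eif2b3, Eef1aknmt, Eif2s2, Eif4e2, Eif4ebp3, Eif4g3 and Eif5. Array weights called 978 genes of the whole array at 12 h, against 285, and 1171 for all embryos, against 182; without 1 array the count ran from 11 to 63 at 2 h (20 with all arrays), 11 to 26 at 4 h (13), 1 to 41 at 6 h, 14 to 189 at 8 h, 22 to 145 at 10 h, 103 to 312 at 12 h, 51 to 196 for all embryos, 110 to 163 for late against early embryos (149) and 94 to 284 for the F-test, and with only the groups compared 2 h, 4 h and 6 h gave 0 calls. The median change with the mean of all probes was 0.01 at 2 h, 0.07 at 4 h and -0.12 at 6 h; in the upper 60% of genes it was 0.15 at 6 h and 0.20 for all embryos. Without 1 array it ran from -0.11 to 0.04 at 4 h, -0.17 to 0.07 at 6 h, -0.02 to 0.16 at 10 h and 0.04 to 0.18 in late against early embryos. At 12 h Eef1d was -0.01 on the score scale, -0.37 with the replicate block and -0.46 to 0.31 without 1 array; the mean of all probes gave -0.44 for Eif4b and -0.31 for Eif4ebp1; the block gave 0.14 for Eif4ebp2. Without 1 array Eif3a ran from -0.86 to 0.19, Eif4a2 from -0.34 to 0.01, Eif4ebp1 from -0.20 to 0.40, Eif4ebp2 from -0.41 to 0.24 and Eif6 from -0.40 to 0.86. The other probe of Eif4h, at background, gave 0.01 at 10 h. All of these changes except that of Eif4h were uncalled, and the cause was not tested. Replicate letters did not pair cells: the deviations of 62 same-letter pairs correlated at -0.13 to 0.18, with a median of 0.01. The replicate block, which joins cells that share only a letter, gave 97 genes of the whole array at 10 h, against 138, and an adjusted p of 0.0646 for Eif2ak1 at 10 h (limma). Comparing only the groups concerned is no other fit for all embryos and the F-test. Without the 6 arrays 1 embryo was left at 8 h, assumed to vary like the others. Weak probes limit what can be seen: 12 of the 57 genes were above background in fewer than 12 cells.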
